A study of Mus musculus with 16 samples.

Results

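Arc, Npas4, Homer1, Plk2, Plk3, Arl4d, Nptx2, Rheb, Ptgs2 and Amigo3 are genes of neurons that synaptic activity can switch on and whose products act on synapses, dendrites or neighbouring cells. They were taken by gene symbol, and all 10 were found among the 17986 genes measured in every library. Expression was measured by bulk RNA sequencing of CA1, the output field of the hippocampus proper, cut out of frozen brain sections of 8 µm with a laser dissection microscope. The mice were males of 3 to 6 months on the C57Bl6 background, labelled wild type or Neil3-/-, with no Cre line or promoter named in the labels (Neil3 encodes a DNA repair glycosylase). Home cage mice had no intervention (2 libraries per genotype label). Exploration mice spent 20 min per day in an open field arena (side 50 cm) with a cue card and food cues over 1 week, and their brains were taken 20 min after the final session (3 libraries per genotype label). Housing and experimenters were shared by all groups, per the labels. The 6 samples whose source is given as the learning condition are not analysed here.

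Activity-induced genes are switched on when calcium entering through synaptic receptors and channels reaches the nucleus, where factors such as CREB, SRF and MEF2 act on their promoters and enhancers. Transcription factors such as Fos and Egr1 form one branch of this response. The other branch consists of effector genes, whose products change the synapse directly: Arc takes AMPA receptors off the membrane, the short form of Homer1 loosens the postsynaptic scaffold, and secreted Nptx2 gathers AMPA receptors. In the hippocampus Arc and Npas4 are known for their rise within minutes of spatial exploration, and Npas4 is the member of the set that is itself a transcription factor.

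The labels were read against the targeted gene first, and the values went against them. Among the 5 WT-labelled libraries Neil3 was listed at 0 in 4 and at 0.05 FPKM (fragments per kilobase of transcript and per 1000000 fragments) in 1. Its FPKM in the KO-labelled libraries were 13.77 and 15.22 (home cage) and 15.13, 11.85 and 8.35 (exploration). The groups are therefore called WT-labelled and KO-labelled throughout, and every genotype difference below is the KO-labelled value minus the WT-labelled one. Across the 10 libraries the FPKM summed to 405718 to 466701, 11114 to 11623 genes reached 1 FPKM, and the depth estimated from the steps between low values was 18600000 to 19900000 fragments. The 6 markers of CA1 pyramidal cells summed to 640.81 to 780.12 FPKM over the libraries, but single markers moved apart: in the home cage Wfs1 stood at 218.93 and 192.41 FPKM (WT-labelled) and 127.3 and 64.88 FPKM (KO-labelled), and Mpped1 at 156.77 and 183.51 against 218.98 and 234.32 FPKM. Of the 6 dentate markers Prox1, Dsp, C1ql2, Tdo2 and Glis3 stayed below 1 FPKM in every library, and Lct ranged from 1.06 to 22.29 FPKM. The home cage and exploration libraries come from separate blocks of the deposited table. A difference between the environments and a difference between the blocks cannot be told apart.

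Home cage libraries differed among themselves in markers of neighbouring cells. The 5 markers of CA2, the small field next to CA1, summed to 234.17 FPKM in WT-labelled home cage library 1 but to 115.95 FPKM in WT-labelled home cage library 2 and to 106.36 and 105.89 FPKM in the KO-labelled home cage libraries. They summed to 172.62 to 183.59 FPKM in the WT-labelled and 152.09 to 254.44 FPKM in the KO-labelled exploration libraries. Pcp4 carried much of this, at 84.32 FPKM in WT-labelled home cage library 1, at 5.05 to 10.66 FPKM in the other 3 home cage libraries and at 46.28 to 112.58 FPKM after exploration. Of the 5 markers Map3k15 was below 1 FPKM in every library, and none was at 0 in all of them. The 3 choroid plexus markers summed to 234.24 FPKM in WT-labelled home cage library 1 and to 9.34 to 17.63 FPKM in the other home cage libraries, and to 130.8 and 107.42 FPKM in WT-labelled exploration libraries 1 and 2 against 10.52 to 16.48 FPKM in the other exploration libraries. The 5 astrocyte markers summed to 57.99 and 64.03 FPKM in the WT-labelled and to 90.42 and 116.46 FPKM in the KO-labelled home cage libraries, and the 5 oligodendrocyte markers to 129.18 and 153.81 against 176.84 and 212.82 FPKM. The 5 microglia markers did likewise, with 21.75 and 24.46 against 30.09 and 32.57 FPKM.

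The marker lists also moved with the environment. By the limma fit described below, averaged over both labels, 4 of the 5 oligodendrocyte markers, 3 of the 5 microglia markers, 2 of the 5 astrocyte markers and all 4 tested blood markers were called higher after exploration and none lower. In the WT-labelled response 3, 2, 2 and 3 of them were called higher, in this order. In the KO-labelled response it was 0, 0, 0 and 1. The difference between these responses was called for 0 markers of the 4 lists. Of all tested genes 12.6% were called higher and 19.2% lower in the averaged response. In the KO-labelled one it was 12% and 16.6%, and in the WT-labelled one 6.31% were called in either direction. The 7 interneuron markers summed to 175.9 to 192.81 FPKM in the home cage and 211.25 to 290.9 FPKM after exploration, and 2 of them were called, Sst (0.57 on the log2 scale) and Pvalb (0.59). By label, Sst changed by 1.02 (WT-labelled) and 0.12 (KO-labelled), and Pvalb by 0.41 and 0.76. Of the 4 tested CA3 markers 2 were called higher, Homer3 and Bok. The range of Bok was 4.53 to 15.59 FPKM in the home cage and 12.88 to 32.43 FPKM after exploration. The CA3 markers Pvrl3 (0.12) and Grik4 (-0.47) were not called, and Grik4 was called lower in the KO-labelled response (-0.9). Of the 6 CA1 markers 1 was called higher (Wfs1) and 4 lower, in the averaged and in the KO-labelled response, and 0 in the WT-labelled one. Of the 4 tested CA2 markers 1 was called higher in the averaged response and 3 in the KO-labelled one, where Lct was also called higher (2.24). The 5 blood markers summed to 94.85 to 154.07 FPKM in the home cage and 159.95 to 308.08 FPKM after exploration. The part of these cell types in the results below was not tested.

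The RefSeq promoter table used here (GRCm38.p6) matched 8 of the 10 genes, all but Arc and Nptx2, in 9 windows that run from 250 bases before to 50 bases after a transcription start. The binding site of CREB, the cAMP response element, was searched on both strands because CREB is a factor through which calcium signals reach this class of genes. The full element TGACGTCA was found in the windows of Arl4d and Plk2, and in 1.79% of all 32851 windows. Its shorter form TGACG, which the full element contains on both strands, was found in windows of 7 of the 8 genes (Npas4, Homer1, Plk2, Plk3, Arl4d, Rheb and Ptgs2) and in 20.81% of all windows. The 250 bases before the start are shown, 5′ to 3′ on the gene's strand, for the 2 genes with a full element, for Npas4, and for the first of the 2 windows of Homer1, which holds 3 copies of the shorter form. Capitals mark the shorter form on either strand, and 8 capitals in a row are the full element. The windows lie at chr11:101665291-101665540 (Arl4d, plus strand), chr13:110394794-110395043 (Plk2, plus strand), chr19:4989972-4990221 (Npas4, minus strand) and chr13:93303507-93303756 (Homer1, plus strand).
Arl4d: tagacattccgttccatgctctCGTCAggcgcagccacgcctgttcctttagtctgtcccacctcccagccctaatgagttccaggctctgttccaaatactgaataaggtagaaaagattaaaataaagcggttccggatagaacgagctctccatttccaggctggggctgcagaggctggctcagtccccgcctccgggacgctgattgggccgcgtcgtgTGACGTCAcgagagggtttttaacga
Plk2: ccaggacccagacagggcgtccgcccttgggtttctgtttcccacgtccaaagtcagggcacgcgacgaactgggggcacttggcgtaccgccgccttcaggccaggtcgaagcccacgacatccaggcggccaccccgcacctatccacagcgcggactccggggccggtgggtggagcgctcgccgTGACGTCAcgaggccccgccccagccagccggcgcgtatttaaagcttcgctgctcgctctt
Npas4: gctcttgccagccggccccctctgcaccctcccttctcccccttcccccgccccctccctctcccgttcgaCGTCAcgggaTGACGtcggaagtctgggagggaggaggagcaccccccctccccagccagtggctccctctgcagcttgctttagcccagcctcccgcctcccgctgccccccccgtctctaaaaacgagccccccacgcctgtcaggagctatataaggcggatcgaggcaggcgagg
Homer1: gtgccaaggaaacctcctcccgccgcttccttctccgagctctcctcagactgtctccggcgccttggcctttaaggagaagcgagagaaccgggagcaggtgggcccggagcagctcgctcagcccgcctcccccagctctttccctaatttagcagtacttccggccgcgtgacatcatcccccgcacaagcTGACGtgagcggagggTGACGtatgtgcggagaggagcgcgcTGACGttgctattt

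In these stretches the full element lies 26 to 19 bases before the start of Arl4d and 62 to 55 bases before that of Plk2. Its 8 letters read the same on both strands. The core TCGTG of the site that NPAS4 binds with its ARNT2 partner was found in the windows of Plk2, Arl4d and Rheb and in 16.04% of all windows. In Arl4d one core stands directly before the full element and another, on the other strand, shares its last 2 bases, and in Plk2 one shares the last 2 bases of the element in the same way. The E-box CACGTG was found in the windows of Rheb and Ptgs2 and in 7.15% of all windows. The AP-1 site TGANTCA (7.81% of all windows), the EGR site GCGNGGGCG (5.55%), the TATA box TATAAA (13.62%), the CArG box that SRF binds (1.63%) and the MEF2 site (3.19%) had no match in the 9 windows, which says only that these letters are not in them. Matches describe the sequence and do not show that a factor was bound.

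Exploration libraries differed from home cage libraries in most of the 10 genes when both genotype labels were averaged. By limma on log2(FPKM + 1), with Benjamini-Hochberg adjustment over all 11892 tested genes, 6 of the 10 rose (Arc, Arl4d, Npas4, Rheb, Ptgs2 and Plk2), 1 was called lower (Amigo3) and 3 were not called (Homer1, Plk3 and Nptx2). Of all tested genes 31.9% were called, 12.6% higher and 19.2% lower. All 10 genes passed the filter of 1 FPKM in at least 2 libraries, but Amigo3 did so through the 4 home cage libraries alone. The filter favours a gene that is high in 1 environment, so the lower call of Amigo3 is given as a description here and in the counts below. The median change of the 10 genes was 0.36, against -0.03 for all tested genes. Of all called genes 39.7% were higher, and this share was 51.9% with size factors, 48.9% with quantile normalization, 48% with a filter of 5 FPKM and 17.3% with FPKM rescaled to a sum of 1000000, which moved the median of all genes to -0.132. In bulk tissue, fewer cells of a type and less RNA per cell cannot be told apart. The p-values measure the spread between these libraries, which the labels do not assign to separate litters or batches.

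**Figure D1:**
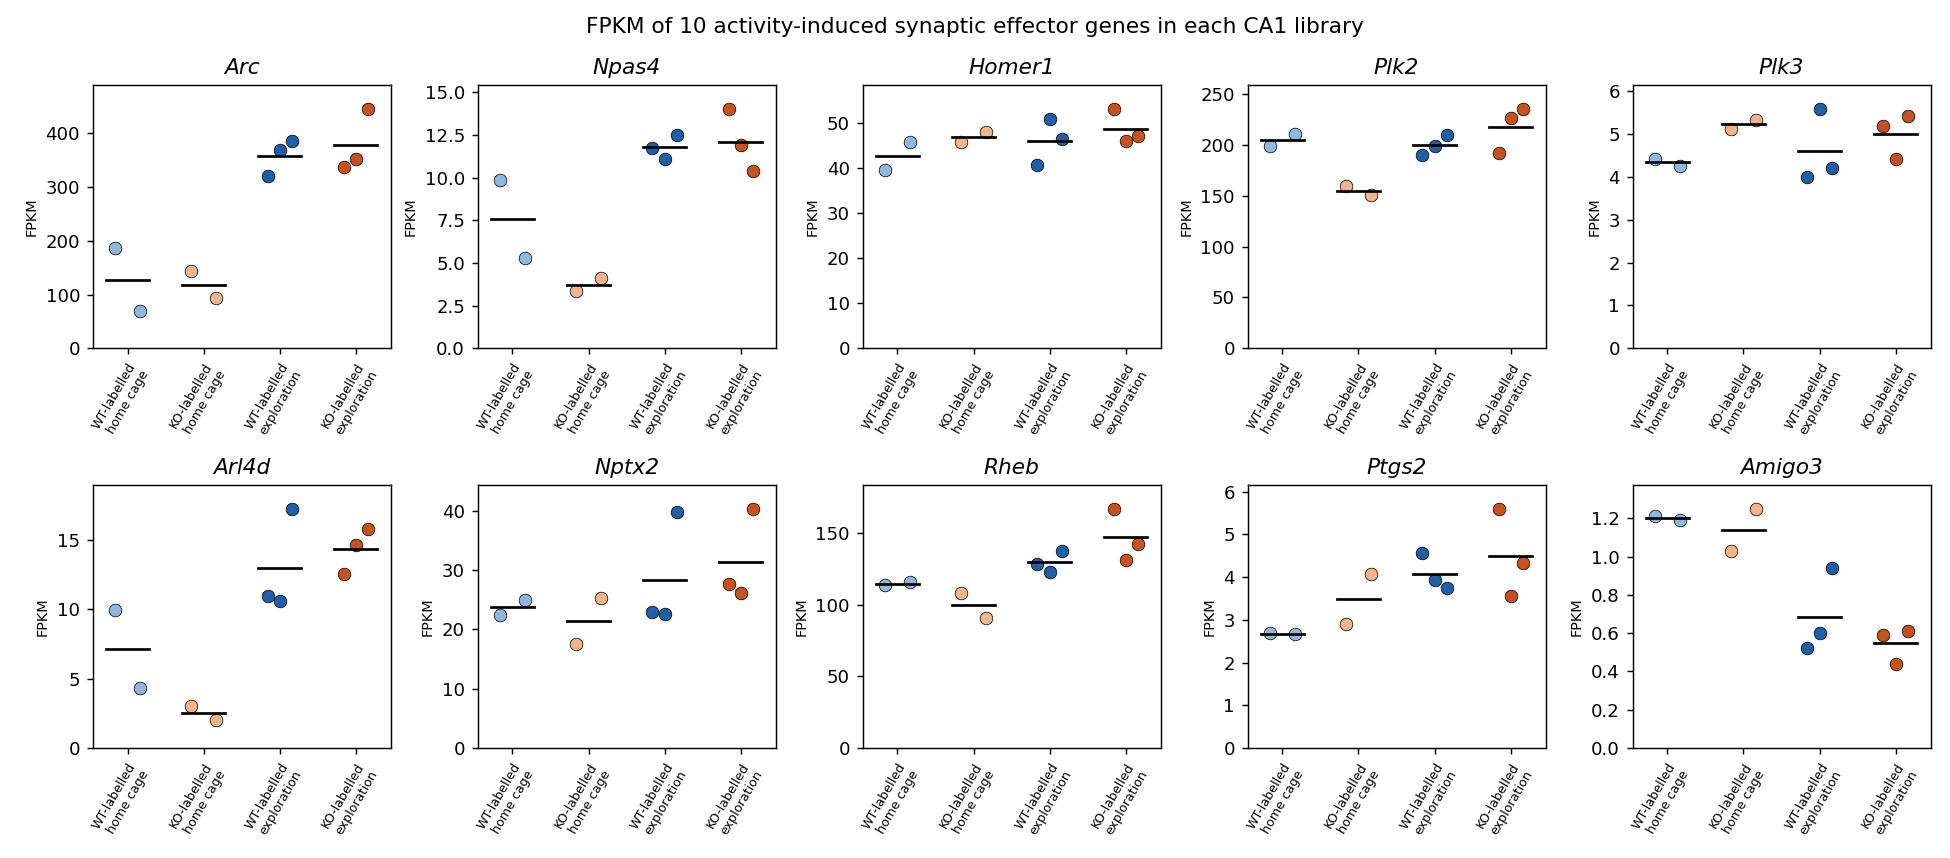
FPKM of the 10 genes (vertical axis, from 0, its own scale per gene) in each of the 10 libraries, with 1 point per library and a bar for the mean of the group. Arc, Npas4, Arl4d and Rheb were higher in all 6 exploration libraries than in any of the 4 home cage libraries, Amigo3 was lower, and the other 5 genes overlapped.

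Arc (gene 11838, chr15:74669081-74672570) encodes a capsid-like protein that recruits the endocytic machinery to AMPA receptors at active synapses. In the home cage it stood at 186.39 and 68.75 FPKM (WT-labelled) and 144.11 and 93.36 FPKM (KO-labelled). The exploration libraries stood at 319.83, 368.46 and 385.1 FPKM (WT-labelled) and 337.22, 351.9 and 445.54 FPKM (KO-labelled). All 6 exploration libraries lay above all 4 home cage libraries, and the home cage libraries spread more widely than the exploration ones. The means of 123 and 368 FPKM differ 2.99-fold. On the log2(FPKM + 1) scale the averaged change was 1.67 (SE 0.22, limma adjusted p 0.000565), the eighth highest of all tested genes. Its spread within groups, an SD of 0.473 on the log2 scale, exceeded that of 99.5% of tested genes.

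Npas4 (gene 225872, chr19:4984353-5003439) encodes a bHLH-PAS transcription factor that is induced by calcium entry and shapes inhibitory synapses onto the activated neuron. The 4 home cage libraries held 9.83 and 5.3 FPKM (WT-labelled) and 3.36 and 4.1 FPKM (KO-labelled). The 6 exploration libraries held 11.74, 11.11 and 12.47 FPKM (WT-labelled) and 14.02, 11.91 and 10.39 FPKM (KO-labelled). The environments did not overlap, with WT-labelled home cage library 1 just below the lowest exploration library. The averaged change was 1.05 on the log2(FPKM + 1) scale (SE 0.13, limma adjusted p 0.000446). Over the 10 libraries its values rest on about 226 to 958 estimated fragments each, against 3778 to 24879 for Arc, counting error only.

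Homer1 (gene 26556, chr13:93303757-93405129) encodes a postsynaptic scaffold that ties metabotropic glutamate receptors to Shank proteins and to calcium release channels. Its long forms are made at rest, and a short form that cuts these ties is made on activity. Home cage values were 39.73 and 45.87 FPKM (WT-labelled) and 45.97 and 48.13 FPKM (KO-labelled). Exploration values were 40.72, 51.05 and 46.53 FPKM (WT-labelled) and 53.24, 46.19 and 47.19 FPKM (KO-labelled). The environments overlapped almost fully. The averaged change was 0.08 (SE 0.07, 95% interval -0.08 to 0.24, limma adjusted p 0.441), and it was -0.02 when FPKM were rescaled to 1000000. The deposited values are per gene. RefSeq lists 4 transcripts of Homer1, and a change of the short form against the long ones cannot be read from a summed level.

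The polo-like kinases Plk2 and Plk3 act in neurons away from their relatives' role in cell division, and Plk2 is known for lowering excitatory drive by removing spine proteins after prolonged activity. Plk2 (gene 20620, chr13:110395044-110400844) stood at 198.79 and 210.17 FPKM (WT-labelled) and 159.41 and 150.36 FPKM (KO-labelled) in the home cage. The exploration libraries stood at 190.06, 198.99 and 209.66 FPKM (WT-labelled) and 191.53, 226.58 and 235.18 FPKM (KO-labelled). The KO-labelled home cage libraries stood below the other 8, and the WT-labelled libraries of both environments overlapped. The averaged change was 0.22 (SE 0.07, limma adjusted p 0.0236). Plk3 (gene 12795, chr4:117128655-117133963) stood at 4.42 and 4.26 FPKM (WT-labelled) and 5.12 and 5.34 FPKM (KO-labelled) in the home cage. The 6 exploration libraries held 4, 5.59 and 4.21 FPKM (WT-labelled) and 5.18, 4.43 and 5.42 FPKM (KO-labelled). Its environments overlapped fully, with an averaged change of 0 (SE 0.09, 95% interval -0.2 to 0.2, limma adjusted p 0.993). The call of Plk2 was lost when FPKM were rescaled to 1000000 (change 0.12, adjusted p 0.182), with quantile normalization (0.06, adjusted p 0.548), and when any 1 of 4 libraries was left out, namely both WT-labelled and the second KO-labelled of the home cage and the third WT-labelled of exploration (0.2 to 0.24, adjusted p 0.0559 to 0.085).

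Arl4d and Rheb are small GTPases. Arl4d (gene 80981, chr11:101665541-101667832) recruits cytohesins, activators of ARF6, to the plasma membrane. Home cage values were 9.93 and 4.33 FPKM (WT-labelled) and 3.01 and 2.05 FPKM (KO-labelled). Exploration values were 10.95, 10.62 and 17.24 FPKM (WT-labelled) and 12.53, 14.64 and 15.75 FPKM (KO-labelled). The environments did not overlap, with WT-labelled home cage library 1 just below the lowest exploration library. The means of 4.83 and 13.6 FPKM differ 2.82-fold, and the averaged change was 1.48 (SE 0.19, limma adjusted p 0.000446), the tenth highest of all tested genes. Its lowest value rests on about 50 estimated fragments.

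Rheb (gene 19744, chr5:24802823-24842361) is the direct activator of the growth-controlling kinase complex mTORC1. In the home cage it stood at 113.75 and 116.04 FPKM (WT-labelled) and 108.44 and 91.18 FPKM (KO-labelled). The exploration libraries stood at 128.77, 123.19 and 137.73 FPKM (WT-labelled) and 167.26, 131.65 and 142.53 FPKM (KO-labelled). Every exploration library was above every home cage library, by a smaller factor than for Arc, Npas4 or Arl4d. The means of 107 and 139 FPKM differ 1.29-fold, and the averaged change was 0.36 (SE 0.07, limma adjusted p 0.00483).

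Nptx2 and Ptgs2 act outside the cell that makes them. Nptx2 (gene 53324, chr5:144545887-144557478), also called Narp, is a secreted pentraxin that clusters AMPA receptors, above all on interneurons. The 4 home cage libraries held 22.49 and 24.96 FPKM (WT-labelled) and 17.55 and 25.3 FPKM (KO-labelled). The 6 exploration libraries held 22.94, 22.56 and 39.72 FPKM (WT-labelled) and 27.65, 26.17 and 40.35 FPKM (KO-labelled). One library of each exploration group stood near 40 FPKM and the rest overlapped the home cage range or lay just above it. The averaged change was 0.36 (SE 0.17, 95% interval -0.01 to 0.74, limma adjusted p 0.12). This is the same change as that of Rheb, with an SE more than 2 times as large.

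Ptgs2 (gene 19225, chr1:150100031-150108234) encodes cyclooxygenase-2, the inducible enzyme that starts prostaglandin synthesis. Home cage values were 2.69 and 2.66 FPKM (WT-labelled) and 2.9 and 4.07 FPKM (KO-labelled). Exploration values were 4.56, 3.93 and 3.75 FPKM (WT-labelled) and 5.6, 3.55 and 4.32 FPKM (KO-labelled). The WT-labelled environments did not overlap, and KO-labelled home cage library 2 lay within the exploration range. The averaged change was 0.38 (SE 0.11, limma adjusted p 0.0262). Its call was lost in 6 alternatives: with no filter (0.38, adjusted p 0.0696), with FPKM rescaled to 1000000 (0.34, adjusted p 0.0591), and when any 1 of 4 libraries was left out, namely both WT-labelled and the first KO-labelled of the home cage and the first WT-labelled of exploration (0.28 to 0.38, adjusted p 0.0609 to 0.0881).

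Amigo3 (gene 320844, chr9:108053159-108055701) encodes a leucine-rich repeat adhesion protein. In the home cage it stood at 1.21 and 1.19 FPKM (WT-labelled) and 1.03 and 1.25 FPKM (KO-labelled). The exploration libraries stood at 0.52, 0.6 and 0.94 FPKM (WT-labelled) and 0.59, 0.44 and 0.61 FPKM (KO-labelled). It was the 1 gene of the set with all exploration libraries below all home cage libraries. The averaged change was -0.43 (SE 0.1, limma adjusted p 0.00726), and with no filter on low values the adjusted p was 0.0112. The lowest value rests on about 21 estimated fragments, for which counting error alone is 21.8%.

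Of the 10 genes, 5 had environments that did not overlap, against 16.9% of all tested genes, and 4 of these were higher after exploration (6.49%) and 1 lower (10.4%). By level, which FPKM makes comparable between genes, Arc, Plk2 and Rheb stood above 98.6%, 97.9% and 96.3% of all measured genes. Homer1 (89.5%) and Nptx2 (82.6%) followed, then Arl4d (66.1%), Npas4 (64.9%), Plk3 (53.7%), Ptgs2 (50.4%) and Amigo3 (34.8%). In the home cage the ranges of Plk2 (150.36 to 210.17 FPKM) and Arc (68.75 to 186.39 FPKM) overlapped. After exploration Arc (319.83 to 445.54 FPKM) lay above Plk2 (190.06 to 235.18 FPKM) in every library, and Plk2 above Rheb (123.19 to 167.26 FPKM). Arl4d and Npas4 overlapped in both environments. Plk3 lay above Ptgs2 in the home cage (4.26 to 5.34 against 2.66 to 4.07 FPKM) and overlapped it after exploration.

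Within the WT-labelled mice, the exploration response was called for Arc alone, against 6.31% of all tested genes. The change of Arc was 1.65 (SE 0.32, limma adjusted p 0.0127). Those of Arl4d (0.84, SE 0.27, adjusted p 0.0873), Npas4 (0.63, SE 0.19, adjusted p 0.0728), Ptgs2 (0.46, SE 0.16, adjusted p 0.107) and Amigo3 (-0.39, SE 0.14, adjusted p 0.113) did not pass, and neither did Nptx2 (0.2), Rheb (0.17), Homer1 (0.1), Plk3 (0.06) and Plk2 (-0.04). The environments did not overlap in 6 of the 10 genes (Arc, Npas4, Arl4d, Rheb, Ptgs2 and Amigo3), against 47.8% of all tested genes. These changes moved with single home cage libraries. A fit without 1 of them leaves 1 library in that group, so only the sizes are given. Without the first WT-labelled home cage library the changes were 2.36 for Arc, 1.35 for Arl4d and 1.02 for Npas4. Without the second they were 0.93, 0.32 and 0.24. With no filter on low values the change of Arc was 1.65 at an adjusted p of 0.0671, and Ptgs2 passed with quantile normalization (0.58), with a fit of the compared groups alone (0.46) and with length and GC trends removed (0.59).

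Within the KO-labelled mice 6 of the 10 genes were called, 5 higher and 1 lower, against 28.6% of all tested genes (12% higher and 16.6% lower). Arl4d changed by 2.12 (SE 0.27, limma adjusted p 0.00106), Arc by 1.69 (SE 0.32, adjusted p 0.00397) and Npas4 by 1.47 (SE 0.19, adjusted p 0.00108). Rheb changed by 0.55 (SE 0.11, adjusted p 0.0044), Plk2 by 0.48 (SE 0.09, adjusted p 0.00444) and Amigo3, with the limit of its filter given above, by -0.47 (SE 0.14, adjusted p 0.0263, and 0.0296 with no filter). Nptx2 (0.53), Ptgs2 (0.29), Homer1 (0.05) and Plk3 (-0.06) did not pass. The environments did not overlap in 7 of the 10 genes, the 6 called ones and Nptx2, against 52.1% of all tested genes. A fit without KO-labelled home cage library 2 leaves 1 library in that group, so no call is read from it. The changes were then 1.93 for Arl4d, 1.58 for Npas4, 1.37 for Arc, 0.44 for Plk2, 0.43 for Rheb and -0.39 for Amigo3. Amigo3 was not called without KO-labelled exploration library 2 (-0.42), with quantile normalization (-0.3), with a fit of the compared groups alone (-0.47) and with length and GC trends removed (-0.39).

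**Figure D2:**
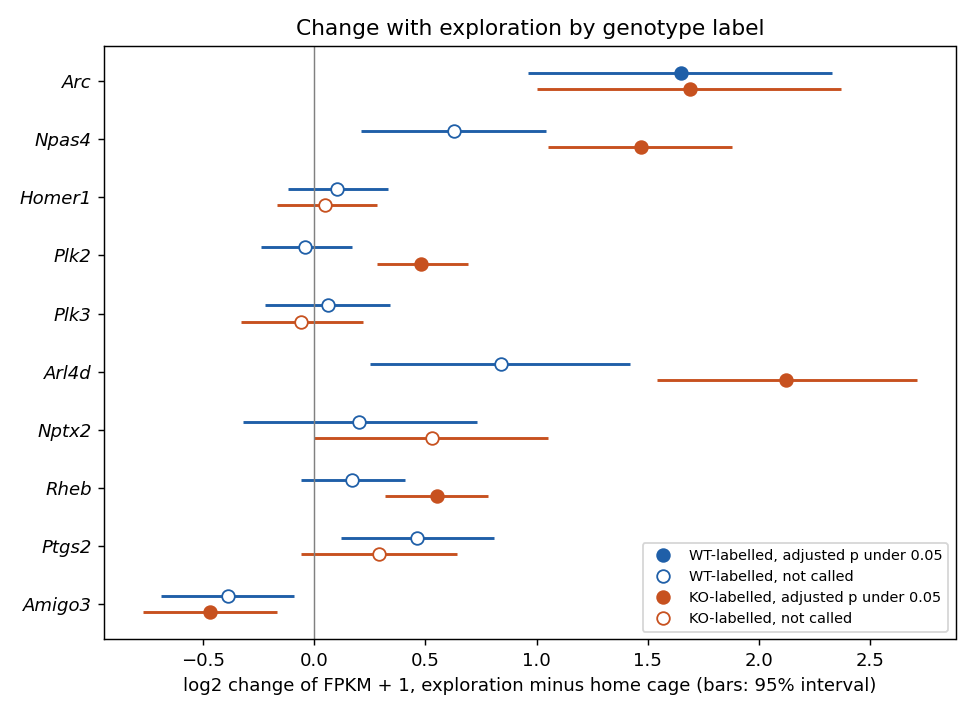
Change with exploration on the log2(FPKM + 1) scale (horizontal axis) for each gene, WT-labelled mice in blue and KO-labelled mice in orange, with 95% intervals from limma; filled points passed an adjusted p of 0.05. Arc sits at 1.65 and 1.69, whereas Arl4d sits at 0.84 and 2.12, Npas4 at 0.63 and 1.47, and Plk2 at -0.04 and 0.48.

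The difference between these responses, tested as the interaction of genotype label and environment, was called for 0 of the 10 genes by limma, against 0.875% of all tested genes. The 4 genes with the largest differences in size each had the larger change in the KO-labelled mice. These were Arl4d (1.29, SE 0.38, adjusted p 0.114), Npas4 (0.84, SE 0.27, adjusted p 0.144), Plk2 (0.52, SE 0.13, adjusted p 0.0774) and Rheb (0.38, SE 0.15, adjusted p 0.233). For Arc the difference was 0.04, with a 95% interval from -0.94 to 1.01 that leaves room for a large difference either way. Leaving out WT-labelled home cage library 2 raised the difference of Arl4d to 1.81 and that of Npas4 to 1.23. Leaving out WT-labelled home cage library 1 instead lowered them to 0.77 and 0.45. Each of these fits leaves 1 library in that group, so only the sizes are given. The difference of Plk2 was called without KO-labelled exploration library 1 (0.61, adjusted p 0.0181). The CA2 markers also had the larger change in the KO-labelled mice, with a median difference in response of 1.92 over the 4 tested. Of these 0 were called, and Rgs14 had a difference of 0.15. The dentate marker Lct, the 1 of 6 dentate markers above 1 FPKM, had 2.57 (adjusted p 0.0578). Of the CA3 markers Bok was called (1.84, adjusted p 0.0496), and Grik4 went the other way (-0.85, adjusted p 0.246). The part of these markers in the 4 genes was not tested.

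The genotype labels were compared within each environment. In the home cage the largest differences in size were those of Arl4d (-1.13, SE 0.29, limma adjusted p 0.0608), Npas4 (-0.81, SE 0.21, adjusted p 0.0566) and Plk2 (-0.4, SE 0.1, adjusted p 0.0553). Each was lower in the KO-labelled libraries. None of the 10 genes was called, against 3.57% of all tested genes. The KO-labelled and WT-labelled home cage libraries did not overlap in 7 of the 10 genes, against 46.9% of all tested genes. The changes of Npas4 and Arl4d were larger in size without WT-labelled home cage library 2 (-1.2 and -1.64), which leaves library 1 alone in its group. They were smaller in size without library 1, which held the higher value of both genes. Arl4d passed without WT-labelled exploration library 3 (-1.13, adjusted p 0.0478). Npas4 and Plk2 passed without KO-labelled exploration library 1 and without KO-labelled exploration library 3, whose spread all comparisons share (-0.81 and -0.4 both times). Markers of several cell types differed between the labels in the same libraries. The 4 tested CA2 markers had a median genotype change of -1.41 with 0 called, and Lct changed by -2.33 (limma adjusted p 0.0217). The medians of the astrocyte, microglia and oligodendrocyte markers were 0.57, 0.42 and 0.41, with 2, 1 and 0 of 5 called higher, among them Gfap (1.24, adjusted p 0.011). The 2 tested choroid plexus markers had a median of -2.01 with 1 called lower, and of the CA1 markers Mpped1 (0.42) was called higher and Wfs1 (-1.17) lower. The part of these markers in the 10 genes was not tested.

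After exploration no genotype difference was detected in any of the 10 genes. The changes ran from -0.12 (Amigo3) to 0.17 (Rheb), with limma adjusted p-values from 0.367 to 0.944. The libraries of the 2 labels overlapped in every one of the 10 genes, against 24.9% of all tested genes that did not overlap. For Arc the 95% interval was -0.54 to 0.69, for Npas4 -0.34 to 0.4, for Arl4d -0.36 to 0.69 and for Homer1 -0.12 to 0.29. Of all tested genes 0.597% were called. Averaged over both environments 0 of the 10 genes were called (2.13% of all tested genes). The largest changes in size were those of Arl4d (-0.48, limma adjusted p 0.18) and Npas4 (-0.39, adjusted p 0.132). The averaged change of Npas4 was -0.59 without WT-labelled home cage library 2, and smaller in size without library 1.

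**Figure D3:**
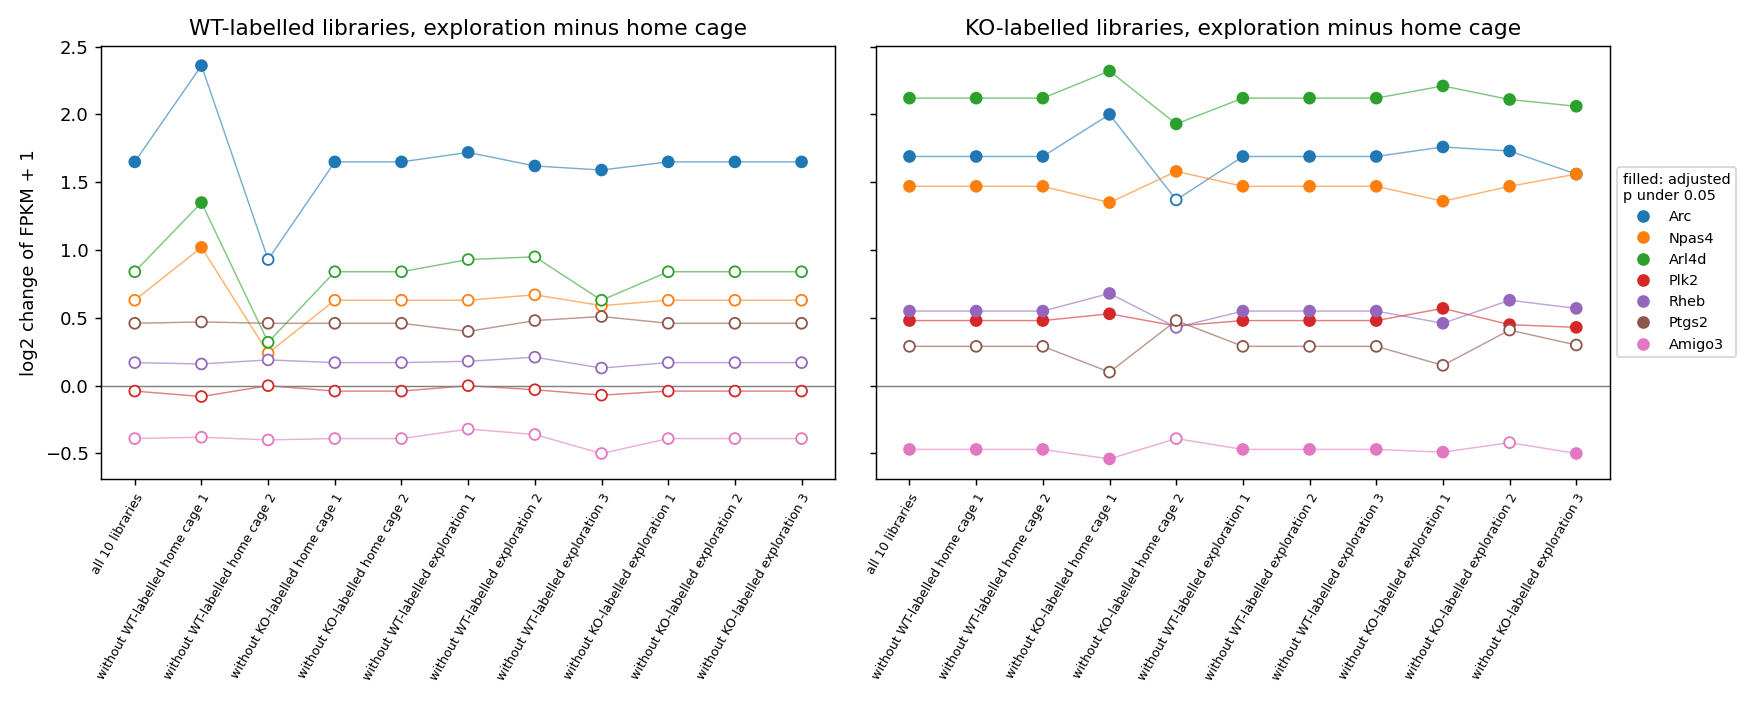
Change with exploration on the log2(FPKM + 1) scale (vertical axis) for the 7 genes called in the averaged response, with all 10 libraries and with each library left out (horizontal axis), WT-labelled mice on the left and KO-labelled mice on the right; filled points passed an adjusted p of 0.05 and lines join the points of a gene. In the WT-labelled mice Arc moves from 1.65 to 2.36 or 0.93 with the left-out home cage library. A fit without a home cage library leaves 1 library in that group, so only the sizes are read there.

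The home cage mice of 1 label could differ widely. KO-labelled home cage library 2 held the highest home cage value of 5 of the 10 genes (Homer1, Plk3, Nptx2, Ptgs2 and Amigo3), against 30.1% of all tested genes. WT-labelled home cage library 1 held that of 3 (Arc, Npas4 and Arl4d), against 22.3%. WT-labelled home cage library 2 held that of the other 2 (Plk2 and Rheb), against 27.7%, and the lowest value of Arc. Fos, a transcription factor gene commonly read as a sign of recent neuronal activity, had 16.28 FPKM in WT-labelled home cage library 1, 2.5 FPKM in WT-labelled home cage library 2, 7.16 and 6.72 FPKM in the KO-labelled home cage mice and 36.1 to 49.65 FPKM after exploration. A list of rapid transcription factors and other rapid response regulators had 14 tested genes. Of these, 7 were highest among the home cage libraries in WT-labelled library 1 (50%, against 22.3% of all tested genes). KO-labelled library 2 was highest for 6 (42.9%, against 30.1%) and KO-labelled library 1 for 1. WT-labelled home cage library 1 was also the library with the high CA2 and choroid plexus sums given above. Without it, which leaves 1 library in its group, the averaged changes were 2.02 for Arc, 1.24 for Npas4, 1.74 for Arl4d, 0.36 for Rheb and -0.43 for Amigo3. In the averaged comparison these 5 genes were called under every alternative in which they were tested (Amigo3 does not reach the filter of 5 FPKM).

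Each gene was next set beside its paralogs, whose FPKM were summed per library. Homer1 made up 59.67% to 70.25% of the Homer sum in the home cage and 60.85% to 67.82% after exploration. Homer2 had an averaged change of 0.04 (limma adjusted p 0.734) and -0.06 when rescaled, and Homer3, which also marks CA3, rose by 0.24 (adjusted p 0.0205). Plk2 made up 95.04% to 97% of the polo-like kinase sum in the home cage and 96.36% to 97.39% after exploration. Plk1, the kinase of dividing cells, ranged from 0.64 to 1.67 FPKM before and from 0.28 to 0.46 FPKM after exploration (change -0.58, adjusted p 0.0071, and 0.0207 with no filter on low values), Plk4 had a change of 0.07 (adjusted p 0.596), and Plk5 stayed below 1 FPKM and was not tested. Plk1 passed the filter through 2 home cage libraries alone, so its call, like that of Amigo3, is given as a description. Rheb made up 97.81% to 98.55% of its sum with Rhebl1 in the home cage and 98.6% to 99.03% after exploration, and Rhebl1 had a change of -0.14 (adjusted p 0.35).

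The share of Arl4d in its family differed widely between libraries. It held 8.75% to 38.86% of the family's sum in the home cage, where Arl4a held 43.91% to 68.95%, and 37.78% to 51.91% after exploration. Arl4a (-0.11, limma adjusted p 0.382) and Arl4c (0.16, adjusted p 0.262) were not called. The highest home cage share of Arl4d, 38.86%, belonged to WT-labelled home cage library 1 and lay within the exploration range. Nptx2 held 7.48% to 13.77% of the pentraxin sum in the home cage and 11.26% to 21.75% after exploration, beside Nptx1 (-0.13, adjusted p 0.122) and the receptor Nptxr, which fell by 0.75 on the log2 scale (adjusted p 0.00319). Home cage FPKM of Nptxr were 42.73 and 52.76 (WT-labelled) and 88.47 and 156.08 (KO-labelled), and its exploration range was 35.16 to 57.7 FPKM. Its change was 0.11 in the WT-labelled (adjusted p 0.799) and -1.6 in the KO-labelled mice (adjusted p 0.00102). Ptgs2 held 63.59% to 82.15% of its sum with the constitutive enzyme Ptgs1 in the home cage and 66.56% to 80.81% after exploration, and Ptgs1 had a change of 0.23 (adjusted p 0.225). Amigo3 was the smallest of its family in each library but KO-labelled home cage library 1, where Amigo2 was lower, at 3.28% to 5.37% in the home cage and 1.77% to 4% after exploration. Amigo1 fell by 0.19 on the log2 scale (adjusted p 0.0199), while Amigo2, itself a marker of CA2, had a change of 1.02 that was not called (SE 0.41, adjusted p 0.0768).

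**Figure D4:**
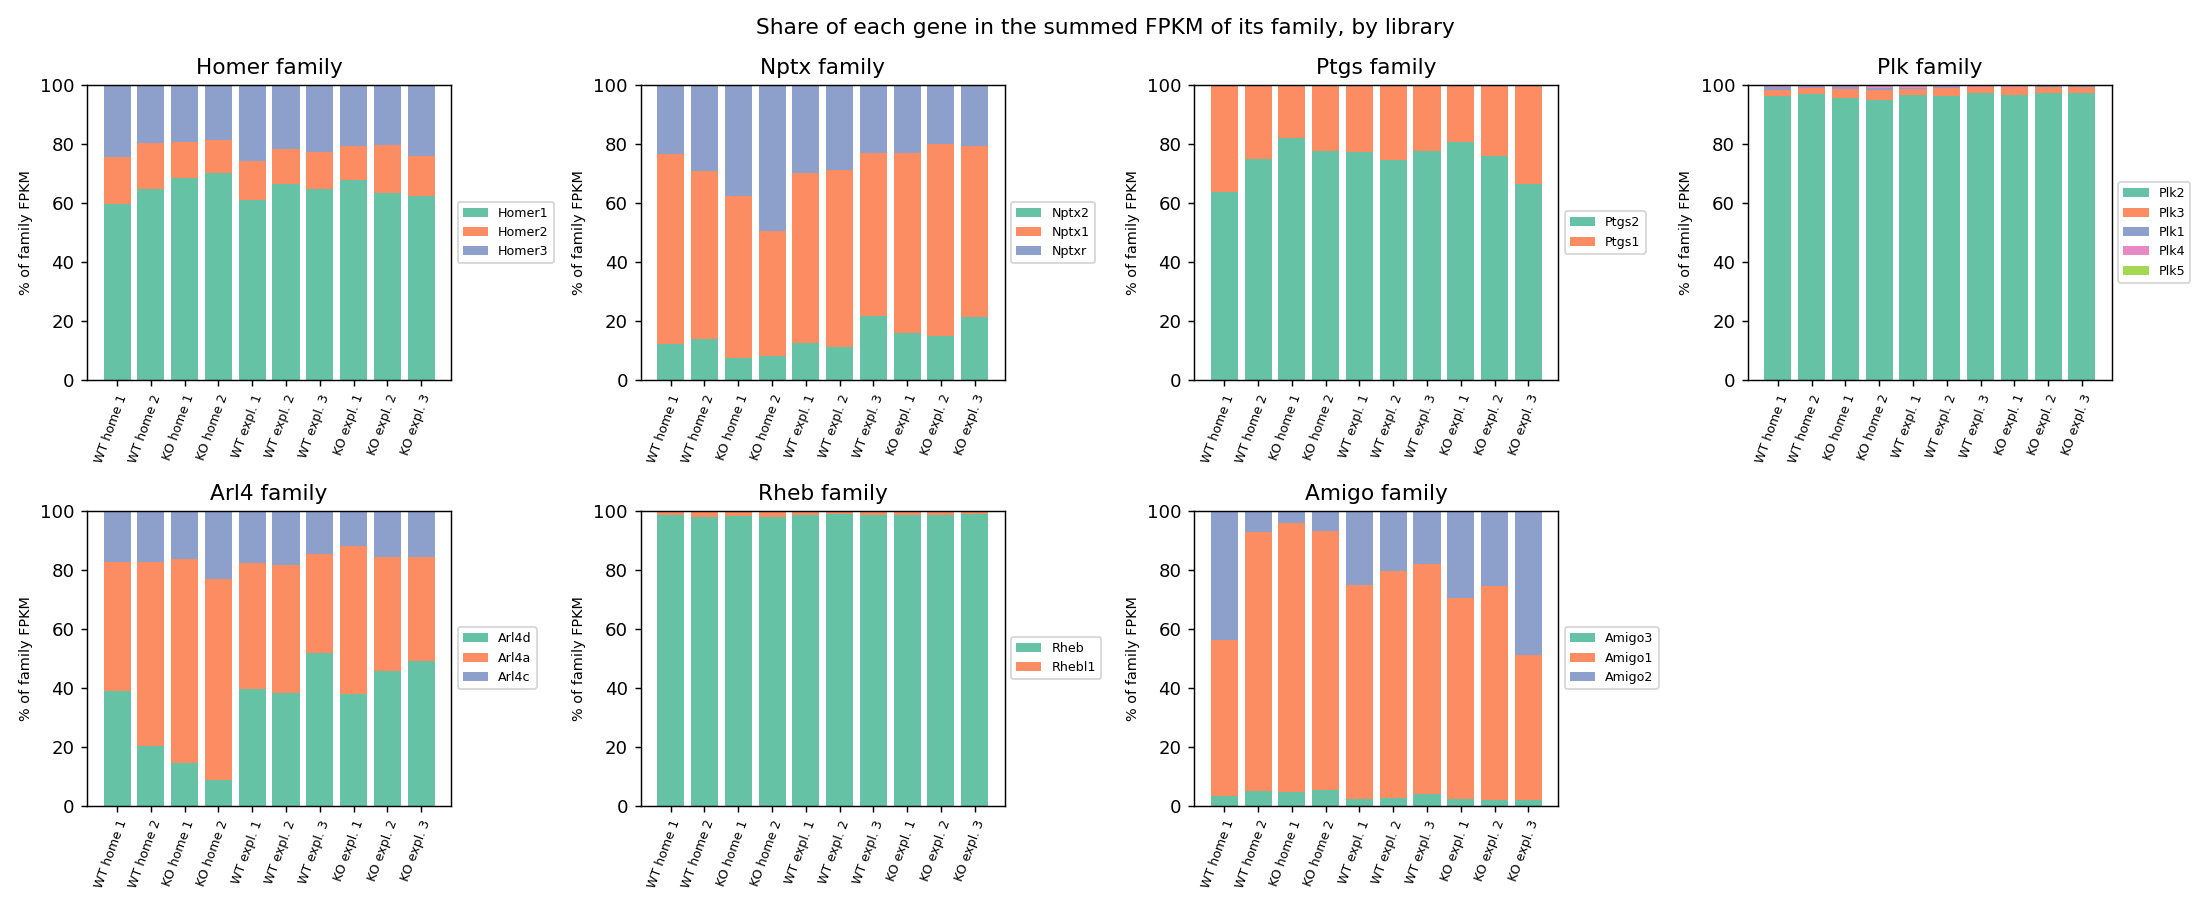
Share of each gene in the summed FPKM of its family (vertical axis, percent) in each library, for 7 families, with the members of the activity-induced set in green and their paralogs in other colours (in the Plk family Plk3 is orange). The green share of Arl4d is 8.75% to 38.86% in the home cage and 37.78% to 51.91% after exploration, whereas those of Homer1, Plk2 and Rheb differ little between the environments.

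Genes that work with the members were taken as lists, whose counts in the averaged response stand beside 12.6% of all tested genes called higher, 19.2% called lower and a median of -0.03. Of the 17 endocytic and receptor genes that Arc acts through, 1 rose and 2 fell (median -0.1): the small adaptor subunit Ap2s1 rose by 0.22 (limma adjusted p 0.0336), and the dynamin Dnm2 (-0.44, adjusted p 0.0038) and the AMPA receptor subunit Gria1 (-0.32, adjusted p 0.00187) fell. Gria1, the main subunit in CA1, ranged from 363.53 to 411.4 FPKM before and from 274.38 to 332.61 FPKM after exploration. Of the 6 tested partners and targets of Npas4, 1 rose and 2 fell (median -0.13). Bdnf, a neurotrophin that NPAS4 induces, rose by 0.22 (adjusted p 0.0226), while Arnt (-0.85, adjusted p 0.000107) and Npas2 (-0.57, adjusted p 0.00236), relatives of the bHLH-PAS class, fell.

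Of the 9 genes of the Homer scaffold, 1 rose (Homer3) and 4 fell (median -0.23). Shank2 (-0.79, limma adjusted p 0.0018) and Shank1 (-0.74, adjusted p 0.00328), the scaffolds that Homer proteins bind, and the calcium release channel Itpr1 (-0.34, adjusted p 0.0145) were among those that fell. Of the 6 tested polo-like kinases and substrates, 1 was called lower (Plk1, with the limit of its filter given above; median -0.13), and of the 3 pentraxin genes and receptors, 1 fell (Nptxr; median -0.18). Of the 12 tested genes of the mTORC1 pathway downstream and upstream of Rheb, 1 rose and 3 fell (median -0.14). Rps6, a ribosomal protein that the pathway phosphorylates, rose by 0.26 (adjusted p 0.0145), and Tsc1 (-0.34, adjusted p 0.0212) and Tsc2 (-0.25, adjusted p 0.0238), the complex that switches Rheb off, fell.

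Of the 6 tested prostaglandin genes beside Ptgs2, 1 rose, the synthase Ptges2 (0.21, limma adjusted p 0.0323; median 0.2). Of the 6 genes of the Arl4 and ARF6 group, 1 fell, the cytohesin Cyth3 (-0.2, adjusted p 0.0264; median 0.02). Of the 13 kinases, coactivators and factors upstream of activity-induced genes, 0 rose and 5 fell (median -0.16), with Mapk3 (-0.53, adjusted p 0.00715), the CREB coactivator Crtc2 (-0.45, adjusted p 0.00467) and the SRF coactivator Mkl2 (-0.28, adjusted p 0.00575) changed most. The list of rapid transcription factors, which also holds rapid response regulators such as Btg2 and Ier2, stood apart from these in its counts. In the averaged response 12 of 14 tested rose and 0 fell (median 0.96), led by Fos (2.5, adjusted p 0.000432), Egr2 (2.16, adjusted p 4.23e-05) and Btg2 (2.07, adjusted p 1.88e-05). In the WT-labelled response 10 were called higher and 0 lower. In the KO-labelled one 9 were called higher and 2 lower, Jun (-1.53, adjusted p 0.0166) and Fosl2 (-0.89, adjusted p 0.00675). Their WT-labelled changes were 0.5 and 0.64, not called. The difference in response was called for Fosl2 (-1.53, limma adjusted p 0.0496) and not for Jun (-2.03, adjusted p 0.0961). The calls of Dnm2, Gria1, Arnt, Npas2, Shank1, Shank2, Nptxr, Plk1, Mapk3, Crtc2, Fos, Egr2 and Btg2 held under every alternative in which they were tested. Those of Ap2s1, Bdnf, Homer3, Rps6 and Ptges2 were lost when FPKM were rescaled to 1000000 (0.11 to 0.16), and those of Itpr1, Mkl2, Tsc1, Tsc2, Cyth3 and Amigo1 when length and GC trends were removed (-0.15 to -0.03). Without KO-labelled home cage library 2 the calls of Ap2s1, Bdnf, Homer3, Rps6, Ptges2, Itpr1, Tsc1, Tsc2, Cyth3 and Amigo1 were lost as well. With FPKM rescaled to 1000000, 9 genes of the endocytic list and 10 of the upstream list were called lower and none higher, and with length and GC trends removed the upstream list had 2 called lower and the mTORC1 list 0. By label, the changes (WT-labelled, then KO-labelled) were 0.04 and -1.1 for Mapk3, -0.2 and -0.93 for Npas2 and -0.41 and -1.07 for Shank1. They were -0.52 and -1.06 for Shank2 and -0.06 and -0.63 for Itpr1. These genes were called in the KO-labelled mice and not in the WT-labelled ones. Their differences in response were not called: Mapk3 (limma adjusted p 0.0509), Npas2 (0.0945), Itpr1 (0.13), Shank1 (0.271) and Shank2 (0.343). The falls of Gria1, Dnm2, Crtc2 and Mkl2 were alike in both labels, and those of Arnt were -0.97 and -0.72.

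**Figure D5:**
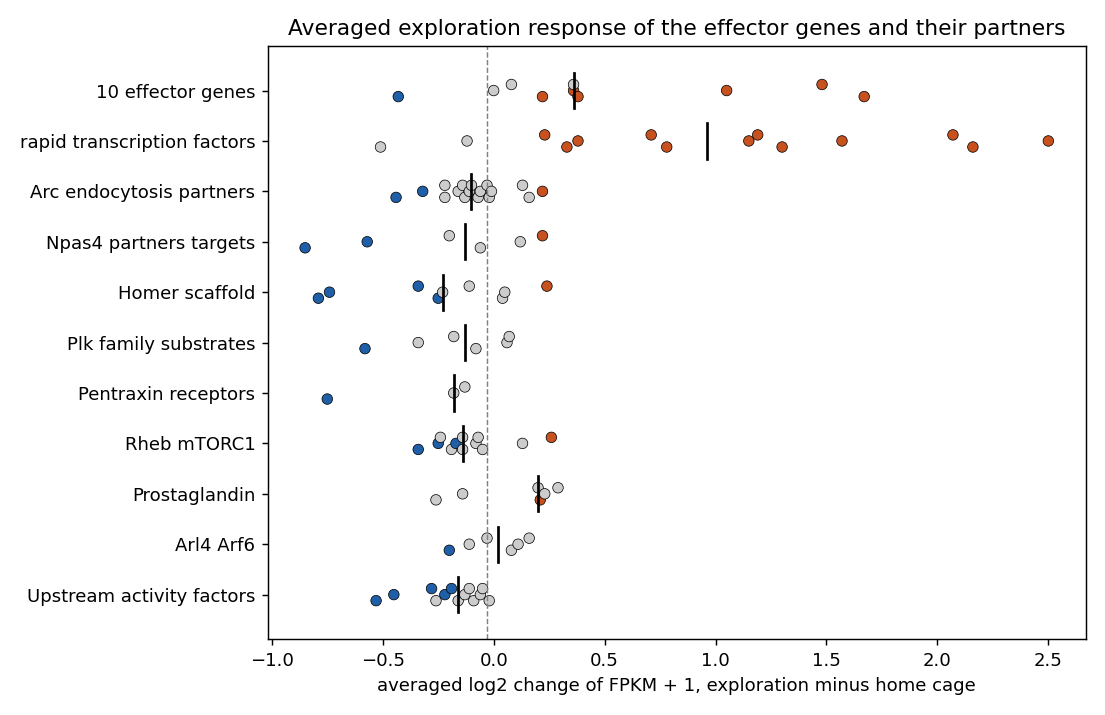
Averaged change with exploration on the log2(FPKM + 1) scale (horizontal axis) of each tested gene of the 10 effector genes and of 10 lists of related genes; orange points were called higher, blue points lower and grey points were not called, black bars are list medians and the dashed line is the median of all tested genes. The effector genes have a median of 0.36 and the rapid transcription factors one of 0.96, and the partner lists lie between -0.23 and 0.2.

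The genes most like 3 of the members were sought by the root mean square difference of log2(FPKM + 1), each gene centred on its own mean over the 10 libraries. For Arc these were Ier2 (0.182), Junb (0.276) and Egr1 (0.313), against a median of 0.924 over all tested genes. All 3 are on the list of rapid transcription factors. Each had its highest home cage value in WT-labelled home cage library 1 and its lowest in library 2, as Arc did. They were picked for likeness to Arc over these same libraries, so this is no separate observation. For Npas4 they were Hsd11b1 (0.27), Tnfrsf12a (0.286) and Mis18a (0.292), against a median of 0.636. Among the other members the closest to Npas4 was Arl4d (0.351), and the closest to Arc was also Arl4d (0.418). For Homer1 they were Klhl2 (0.06), Uck1 (0.065) and Adprm (0.069), against a median of 0.198, and Plk3 (0.103) was the closest member. A gene that varies little is near any other such gene by this measure.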

How the data were processed

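CA1 libraries of 10 mice were analysed, and the members and gene lists were chosen with earlier results of these data known. Values are FPKM per gene as the authors deposited them, in 2 blocks of columns, 1 per environment. Per the submitters' processing notes the builds are GRCm38 and mm10 and the tools include HISAT, StringTie, GATK, Bowtie2 and RSEM. Their roles, the use of strand and whether the blocks were normalized together are not given in the sources used here, so genes that overlap or have antisense partners are uncertain. Paired reads of 100 bases were made on a BGISEQ-500, per the labels' protocols. The blocks (19156 exploration and 18257 home cage genes) were joined on gene ID, which gave 17986 genes.

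FPKM are not counts, so limma 3.58.1 (R 4.3.3) was fitted to log2(FPKM + 1), which understates changes of low genes, over the 11892 genes that reached 1 FPKM in 2 or more libraries. All 10 libraries entered with 1 mean per group and a variance trend (6 residual and 5.71 prior degrees of freedom). P-values were adjusted by Benjamini-Hochberg within each of 7 comparisons, and adjusted values under 0.05 are named calls. The code was tested on simulated data. Depth was estimated from the steps between low FPKM and RefSeq transcript lengths less 100 bases (17500000 to 18700000 fragments without this offset); it is an estimate, and counting errors from it cover counting only. Gene coordinates and promoter windows are from RefSeq (GRCm38.p6). Named genes were the 10 members, Neil3, fixed paralogs, up to 3 called genes with the largest change per list, and the 3 genes most like Arc, Npas4 and Homer1; marker genes and the Fos values by library are given beside results. The list of partners of the Amigo family is not reported here. Alternatives were robust empirical Bayes or no variance trend, size factors, quantile normalization or rescaling to 1000000, no filter or one of 5 FPKM, a pseudocount of 0.1, a fit of the compared groups alone, each library left out and, chosen after seeing the data, removal of length and GC trends.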

Additional observations from a re-analysis of the deposited data

Results flagged for a closer look

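The highest and lowest library of each of the 10 genes were compared with the others within the 4 home cage and the 6 exploration libraries, over both genotype labels. By Dixon's criterion 2 of these 20 sets had a library apart from the rest, and chance flags about 1 in 20. Ptgs2 was at 4.07 FPKM in KO-labelled home cage library 2, where the other home cage libraries were at 2.66 to 2.9 FPKM; the gap took up 0.83 of the range. Amigo3 was at 0.94 FPKM in WT-labelled exploration library 3, where the other exploration libraries were at 0.44 to 0.61 FPKM; the gap took up 0.66 of the range.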

How the results depend on the processing

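Over the 10 genes in 7 comparisons and the other named genes in the averaged response, 1958 values under alternatives were compared with those reported: 1809 kept direction and side of the threshold, 81 lost a call, 28 gained one and 40 changed sign, none of these last called; where no cause is given, it was not tested. The number of the 10 genes called in the WT-labelled response, 1, was 0 with no filter and 2 with quantile normalization, with the compared groups alone and with length and GC trends removed, and 0 to 3 with a library left out. In the KO-labelled response it was 2 to 6 with a library left out. In the home cage genotype comparison, 0, it was 1 with a pseudocount of 0.1 and with quantile normalization, 2 when rescaled to 1000000 and with length and GC trends removed, and 0 to 2 with a library left out. With a library left out it was 0 to 1 in the averaged genotype comparison and 0 to 2 in the difference in response. The count in the averaged response stayed within 1.5 times of 7 throughout.

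Sign changes were all near 0 or from single libraries. Rescaling gave -0.02 for Plk3 (WT-labelled), -0.06 and -0.02 for Homer1 (KO-labelled and averaged) and -0.06 for Homer2. Quantile normalization gave -0.02 for Homer1 and 0.09 for Plk3 (KO-labelled) and 0.05 for Amigo3 (difference). Removing length and GC trends gave 0.01 for Plk2 (WT-labelled), 0.01 for Plk3 (KO-labelled) and 0.05 for Nptx1. With 1 library left out, the WT-labelled response ran from -0.07 to 0.13 for Plk3 and -0.06 to 0.34 for Nptx2, and the KO-labelled one from -0.01 to 0.09 for Homer1 and -0.1 to 0.02 for Plk3. The home cage genotype change ran from -0.68 to 0.75 for Arc, -0.41 to 0.09 for Nptx2 and -0.12 to 0.03 for Amigo3. That after exploration ran from -0.05 to 0.15 for Arc, -0.07 to 0.13 for Npas4, -0.03 to 0.42 for Nptx2 and -0.04 to 0.23 for Ptgs2, and the averaged one from -0.3 to 0.41 for Arc and -0.08 to 0.05 for Rheb. The difference in response ran from -0.67 to 0.75 for Arc, -0.15 to 0.05 for Homer1, -0.19 to 0.01 for Plk3, -0.37 to 0.01 for Ptgs2 and -0.15 to 0.03 for Amigo3, and the averaged response from -0.01 to 0.08 for Homer2 and -0.01 to 0.15 for Plk4.

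Counts of all called genes also moved. Those of the WT-labelled (750) and KO-labelled responses (3400) were 1690 and 1705 with the compared groups alone, and the first was 440 with no filter and 492 with 5 FPKM. The home cage genotype count (425) was 27 with no filter. That after exploration (71) was 10 with no filter, 37 with no variance trend and 36 with the compared groups alone, and the averaged one (253) was 47 with no filter and 427 with quantile normalization. The difference in response (104) was 0 with a pseudocount of 0.1, with no filter and with no variance trend, 68 with 5 FPKM and 4 when rescaled. With 1 library left out the counts of all called genes ran from 84 (without WT-labelled home cage library 2) to 1004 in the WT-labelled, from 505 (without KO-labelled home cage library 2) to 3568 in the KO-labelled and from 1916 (without the same library) to 4248 in the averaged response, which was 2005 without WT-labelled home cage library 2. They ran from 13 (without KO-labelled home cage library 2) to 588 in the home cage genotype comparison, which was 15 without WT-labelled home cage library 1, from 17 to 104 after exploration, from 28 to 319 in the averaged one and from 0 to 436 in the difference in response, so the shares of all genes called that stand beside the counts of the 10 genes move with single libraries too. Few estimated fragments limit Amigo3 and the home cage values of Arl4d most. No paired analysis was possible because the labels give no replicate numbers; the numbers used here only name libraries.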
